A study of Mus musculus with 27 samples.

Results

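The 9 genes described here encode components of the basement membrane: the collagen chains Col4a1, Col4a2, Col15a1 and Col18a1, the laminin chains Lama5, Lamb1, Lamb3 and Lamc1, and the linker protein nidogen 1 (Nid1). They were taken by gene symbol and are 9 of the 27178 genes listed in the larger of the deposited tables. All 9 were listed in each of the 3 tables. Enough reads for a test were present for 9 of them in liver and in organoids of treated mice, and for 8 in organoids treated in culture, where Nid1 had at most 12 reads in any library.

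A basement membrane is a thin sheet of extracellular matrix under epithelia and around vessels, muscle and nerve. Laminins, each a trimer of an alpha, a beta and a gamma chain, form one network at the cell surface, and type IV collagen, in most tissues a trimer of the products of Col4a1 and Col4a2, forms another. Nidogens and the proteoglycan perlecan link the networks, and collagens XV and XVIII sit on the outer side of the sheet. In healthy liver the sinusoids lack a continuous basement membrane, while bile ducts, portal vessels and nerves have one. In fibrosis, matrix of this kind is laid down along the sinusoids.

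Messenger RNA was sequenced from mouse liver and from liver organoids, in 27 libraries that form 9 groups of 3. The liver groups were healthy mice, mice with fibrosis induced by carbon tetrachloride (CCl4), and CCl4 mice given Sargassum japonica, a brown seaweed. A second table held organoids of treated mice: those of animals that had received only the CCl4 vehicle, mineral oil, those of CCl4 animals, and those of CCl4 animals with 24 h of Sargassum japonica extract in culture. The last table held organoids of healthy mice treated in culture: without addition, after 24 h of TGF-β1 (transforming growth factor beta 1), and after 24 h of TGF-β1 followed by 24 h of the extract. The labels give no strain, sex, age or dose, and they do not say whether the 3 libraries of a group came from separate animals or cultures. A p-value here is thus set against library-to-library spread alone, and that spread may be technical. Per the labels' protocols all organoids grew in Matrigel, a basement membrane preparation that itself contains laminin, type IV collagen and nidogen, and were differentiated for 4 to 5 days. The transcripts measured are those of the cells, not of that gel.

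Libraries held 44.5 to 64.8 M reads, and levels are given as CPM, counts per M of the effective library size that the authors used. Two-sided limma tests were run within each table with Benjamini-Hochberg adjustment over all genes tested, and changes with an adjusted p below 0.05 were called. Each log2 fold change, printed ± SE, is on the scale of log2 CPM with a prior count of 2 reads, so changes of low genes are understated. Summed CPM of 8 hepatocyte markers was 118805 to 136986 in healthy liver, 979 to 2418 in organoids of treated mice and 239 to 344 in organoids treated in culture. Summed CPM of 8 cholangiocyte or progenitor markers was 43.3 to 63.0 in healthy liver and 4817 to 10661 over all organoid libraries, so the organoids carried mainly biliary markers. In the organoids treated in culture, untreated replicate 3 and TGF-β1 plus extract replicate 3 stood apart on the first principal component (62.2% of the variance), at 79.6 and 95.3, with the other 7 libraries between -27.2 and -23.2. Results that rest on those libraries are given with and without them, except the search for nearest genes, which used all 27 libraries. In organoids of treated mice, mineral oil replicate 1 lay at 38.8 on the first component (67.4%), and the other mineral oil libraries at 119.9 and 131.6.

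Col4a1 (Entrez 12826, chr8:11198423-11312826, minus strand of GRCm38) and Col4a2 (12827, chr8:11312805-11449287, plus strand) lie head to head, and their annotated 5′ ends overlap by 22 bases. The other genes are Col15a1 (12819, chr4:47208161-47313167, plus), Col18a1 (12822, chr10:77052178-77166548, minus), Lama5 (16776, chr2:180176373-180225859, minus), Lamb1 (16777, chr12:31265234-31329644, plus), Lamb3 (16780, chr1:193207699-193343878, plus), Lamc1 (226519, chr1:153218922-153332786, minus) and Nid1 (18073, chr13:13437551-13512269, plus). Gene spans are those of GENCODE M21, and the counts cover exons of the whole gene as the authors' annotation had them. All of these genes except Lamb1 and Lama5 overlap a gene on the other strand in that annotation. The sources used here do not give whether reads were counted by strand, so reads of such overlapping genes cannot be told apart.

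Stretches just upstream of the gene starts are shown for Nid1, Lamb1, Lama5 and Col18a1. Of these genes, Nid1, Lamb1 and Lama5 rose in CCl4 liver while Col18a1 fell. The stretches come from RefSeq (GRCm38.p6), exclude every base inside an annotated gene, and run 5′ to 3′ on the gene's own strand. Only these genes had upstream bases left. For Col4a1, Col4a2, Col15a1 and Lamb3 all upstream bases lay inside an annotated gene, and Lamc1 had no window. Capitals mark matches, on either strand, to the motifs searched.
Nid1, chr13:13437352-13437550, plus strand: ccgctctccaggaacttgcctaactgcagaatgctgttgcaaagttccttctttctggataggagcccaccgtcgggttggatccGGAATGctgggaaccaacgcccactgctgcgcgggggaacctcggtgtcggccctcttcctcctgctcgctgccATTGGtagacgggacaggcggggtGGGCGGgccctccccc
Lamb1, chr12:31265043-31265145, plus strand: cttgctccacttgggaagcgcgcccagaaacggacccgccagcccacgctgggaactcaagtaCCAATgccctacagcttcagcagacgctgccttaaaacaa
Lama5, chr2:180225905-180226109, minus strand: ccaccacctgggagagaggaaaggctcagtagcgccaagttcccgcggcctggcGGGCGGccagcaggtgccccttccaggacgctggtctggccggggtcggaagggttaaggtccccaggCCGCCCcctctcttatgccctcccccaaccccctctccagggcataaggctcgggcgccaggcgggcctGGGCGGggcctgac
Col18a1, chr10:77166549-77166780, minus strand: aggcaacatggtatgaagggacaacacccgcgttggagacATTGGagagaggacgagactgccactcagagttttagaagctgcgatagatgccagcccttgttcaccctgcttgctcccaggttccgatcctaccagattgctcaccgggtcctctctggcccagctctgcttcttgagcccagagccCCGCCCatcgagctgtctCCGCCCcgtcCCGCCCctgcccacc
The motifs were TGANTCA (AP-1), GGAATG (TEAD), CAGACA (a SMAD element), CCAAT (NF-Y) and GGGCGG (SP1), none of which contains another. The Nid1 stretch held 1 match each to the TEAD, NF-Y and SP1 motifs, the Lamb1 stretch 1 to NF-Y, the Lama5 stretch 3 to SP1, and the Col18a1 stretch 1 to NF-Y and 3 to SP1. Over whole windows of 250 bases before to 50 after the gene start, 8 of the 9 genes had a window. Col18a1 and Lamb3 had more than 1, at different starts. The counts for the 8 are per gene, in any window, while the shares of all windows are per window. GGGCGG occurred in 6 of the 8 and in 35.7% of all 32851 windows, CCAAT in 5 and 37.4%, GGAATG in 3 and 14.7%, CAGACA in 2 and 21%, and TGANTCA in 0 and 7.81%. The genes that rose and the gene that fell were not set apart by CCAAT or GGGCGG. Col18a1 held both in 1 of its windows. Col4a1, Col4a2, Lamb1 and Nid1 also held both, while Lama5 held GGGCGG without CCAAT and Col15a1 held neither. GGAATG was in the windows of Col18a1, Lamb3 and Nid1. CAGACA was in those of Col18a1 and Lamb3 and in no window of a gene that rose. These are also the genes with more than 1 window, so more sequence was searched for them. Only 1 gene fell, and whether this motif goes with the direction of change was not tested.

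In fibrotic liver, 7 of the 9 genes rose, Col18a1 fell, and Lamb3 did not pass the test. The same comparison called 54.0% of all 15036 genes tested, 28.5% higher and 25.5% lower. The median log2 change was 1.86 over the 9 genes and 0.00032 over all genes tested. The comparison asks how the basement membrane transcripts of liver differ after CCl4.

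Nid1, the laminin-binding linker, rose most. It was at 20.8, 21.7 and 13.7 CPM in healthy liver and at 127, 104 and 154 CPM in CCl4 liver. All CCl4 libraries lay far above all healthy ones, and the log2 change was 2.78 ± 0.19 (adjusted p = 4.2e-07). The type IV collagen chains followed. Col4a1 was at 42.5, 40.5 and 28.4 CPM in healthy and 218, 165 and 216 CPM in CCl4 liver, with no overlap and a log2 change of 2.44 ± 0.15 (adjusted p = 1.77e-07). Its partner Col4a2 was at 31.8, 29.1 and 18.3 CPM against 146, 109 and 138 CPM, a log2 change of 2.34 ± 0.18 (adjusted p = 1.01e-06). In both chains healthy replicate 3 was the lowest healthy library and CCl4 replicate 2 the lowest CCl4 library, so the same libraries were low for both chains.

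The collagens that carry glycosaminoglycan chains and release endostatin-type fragments moved in opposite directions. Col15a1 was at 6.59, 4.04 and 4.74 CPM in healthy liver and 16.4, 15.03 and 27.4 CPM in CCl4 liver, and rose by 1.91 ± 0.22 on the log2 scale (adjusted p = 2.36e-05). Col18a1, which hepatocytes are known to transcribe, was at 1259, 1110 and 1256 CPM in healthy and 708, 781 and 511 CPM in CCl4 liver. All 3 CCl4 libraries were below all healthy libraries, and the log2 change was -0.88 ± 0.15 (adjusted p = 0.00046). Because Col18a1 was so abundant, the summed CPM of the 9 genes did not rise: it was 1240 to 1395 in healthy and 1140 to 1304 in CCl4 liver.

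Among the laminins, the chains of the trimer of alpha 5, beta 1 and gamma 1 (laminin-511, the common laminin of adult epithelia and vessels) rose together. Lama5 went from 3.77, 3.87 and 3.39 CPM to 12.6, 10.1 and 19.2 CPM, a log2 change of 1.86 ± 0.20 (adjusted p = 1.13e-05). Lamb1 went from 7.68, 8.05 and 6.34 CPM to 22.4, 21.4 and 23.6 CPM, a log2 change of 1.61 ± 0.14 (adjusted p = 2.54e-06). Lamc1 went from 19.1, 19.6 and 16.8 CPM to 51.0, 48.9 and 47.7 CPM, a log2 change of 1.41 ± 0.10 (adjusted p = 4.72e-07). No CCl4 library of these chains reached down to a healthy one. Lamb3, the beta chain of the epithelial laminin-332, was at 3.66, 2.43 and 1.90 CPM in healthy and 3.84, 3.01 and 4.74 CPM in CCl4 liver. These groups overlapped, and the log2 change of 0.56 ± 0.24 did not pass (adjusted p = 0.0724), although it passed without healthy replicate 1 (0.81, adjusted p = 0.0129) or without CCl4 replicate 2 (0.72, adjusted p = 0.0382).

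**Figure D1:**
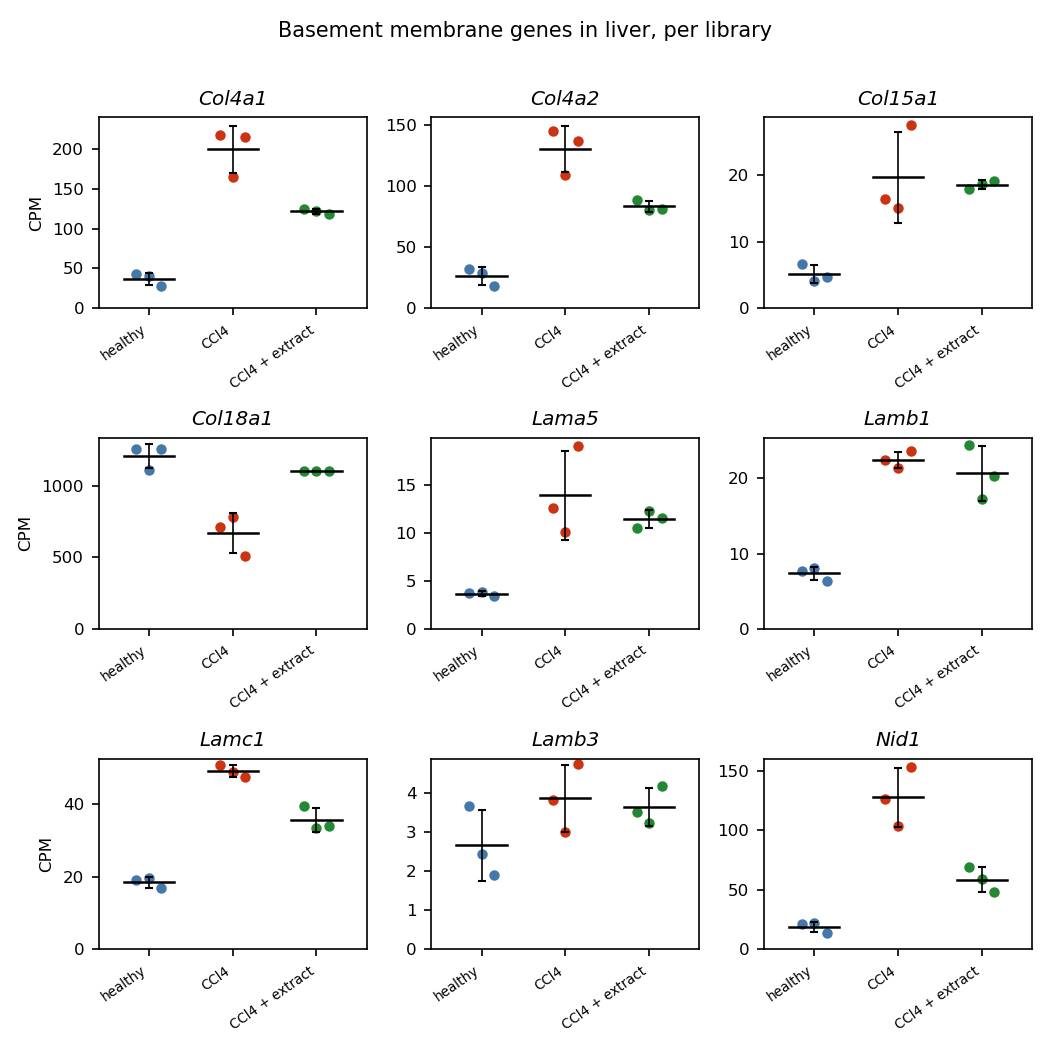
CPM of the 9 genes (vertical axes, each starting at 0) in the 3 liver groups (horizontal axes). Points are libraries, horizontal lines group means and bars ± SD (n = 3). Nid1 rises from 13.7 to 21.7 CPM in healthy liver to 104 to 154 CPM in CCl4 liver, and Col18a1 falls from 1110 to 1259 to 511 to 781 CPM. The extract group lies between them for Nid1, Col4a1, Col4a2, Lamc1 and Col18a1, the last at 1103 to 1105 CPM, just below the healthy libraries.

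The authors' scaling factors were 0.854 to 0.923 in healthy and 1.09 to 1.22 in CCl4 liver, so scaling bears on these values. With library size alone the median change of all genes was 0.38 rather than 0.00032, and 7228 genes were called higher and 1389 lower, against 4290 and 3834 with the factors. On that scale Col18a1 still fell (-0.50, adjusted p = 0.0040), Lamb3 passed as higher (0.94, adjusted p = 0.0093), and the other 7 genes changed by 1.80 to 3.16. Markers of other cell types moved in the same libraries. The summed CPM of 12 stellate cell or myofibroblast markers was 264 to 315 in healthy and 1164 to 1641 in CCl4 liver, with 10 members called higher. That of 10 endothelial markers was 263 to 471 and 446 to 515 (5 called higher), and that of 8 cholangiocyte or progenitor markers was 43.3 to 63.0 and 190 to 418 (6 of 7 tested called higher). That of 8 macrophage or leukocyte markers was 339 to 469 and 689 to 847 (6 called higher), that of 4 mesothelial markers 0.958 to 1.56 and 6.20 to 8.43 (4 called higher), and that of 4 proliferation markers 2.65 to 9.09 and 441 to 552 (4 called higher). The 8 hepatocyte markers fell from 118805 to 136986 CPM to 99730 to 104937 CPM in sum, with 4 called lower, in the libraries where Col18a1 was lower. No gene of these lists was at 0 reads in either group, and their part in the changes of the basement membrane genes was not tested. In bulk tissue, a change in the number of cells of a type and a change of RNA per cell cannot be told apart.

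In liver of CCl4 mice given the extract, 4 of the 9 genes were lower than in CCl4 liver and Col18a1 was higher, against 19.1% of all genes called (9.34% higher and 9.74% lower). The median log2 change of the 9 genes was -0.23, that of all genes -0.0017. This comparison asks whether Sargassum japonica moves the transcripts that CCl4 had moved. It shares its CCl4 libraries with the comparison above.

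Nid1 was at 69.2, 58.7 and 48.1 CPM with the extract, all below the CCl4 libraries (104 to 154 CPM) and all above the healthy ones (13.7 to 21.7 CPM). Its log2 change against CCl4 was -1.12 ± 0.19 (adjusted p = 0.0023). Col4a1 was at 125, 122 and 119 CPM, likewise between the other groups, and changed by -0.70 ± 0.15 (adjusted p = 0.0080). Col4a2 was at 88.9, 80.8 and 81.5 CPM and changed by -0.63 ± 0.18 (adjusted p = 0.0304). This last call was lost without any single library of these 2 groups except CCl4 replicate 2 (adjusted p of 0.063 to 0.109 without CCl4 replicate 1 or 3 or any of the 3 extract replicates). Lamc1, the gamma chain shared by most laminins, was at 39.5, 33.5 and 34.0 CPM against 47.7 to 51.0 CPM, a change of -0.47 ± 0.10 (adjusted p = 0.0078).

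Col18a1 was at 1105, 1103 and 1104 CPM with the extract, a spread of 1.2 CPM (SD), against 511 to 781 CPM in CCl4 liver. It was 0.75 ± 0.15 higher on the log2 scale (adjusted p = 0.0055). The remaining 4 genes did not pass: Lama5 at 10.5, 12.4 and 11.5 CPM, Lamb1 at 24.5, 17.2 and 20.3 CPM, Col15a1 at 17.8, 18.7 and 19.1 CPM and Lamb3 at 3.51, 3.24 and 4.19 CPM. Their log2 changes lay between -0.23 and -0.03, with adjusted p of 0.45 to 0.95, and their extract libraries overlapped the CCl4 libraries. The partner chains of the alpha 5, beta 1, gamma 1 trimer were thus called differently, with Lamc1 lower and Lama5 and Lamb1 not passing, and the difference between these changes was not tested.

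Against healthy liver, the same extract libraries still had 7 of the 9 genes higher and 0 lower, beside 34.6% of all genes called (21.0% higher). Log2 changes were 1.88 for Col15a1, 1.73 for Col4a1, 1.70 for Col4a2, 1.66 for Nid1, 1.63 for Lama5, 1.48 for Lamb1 and 0.95 for Lamc1, with adjusted p between 7.34e-06 and 7.34e-05. Col18a1 (-0.13 ± 0.15, adjusted p = 0.54) and Lamb3 (0.49 ± 0.24, adjusted p = 0.14) did not pass. The stellate cell or myofibroblast sum was 735 to 893 CPM in these libraries, between the healthy and the CCl4 ranges, with 4 of 12 members called lower and 1 higher than in CCl4 liver. Proliferation markers summed to 53.9 to 105 CPM (4 of 4 lower), cholangiocyte or progenitor markers to 129 to 149 CPM (2 of 7 lower) and hepatocyte markers to 122047 to 140131 CPM (3 of 8 higher). Macrophage or leukocyte markers, at 698 to 753 CPM, and endothelial markers, at 447 to 493 CPM, overlapped the CCl4 ranges, with 1 member of each list called lower. The part of these cell types in the Nid1, Col4 and Col18a1 values was not tested. The scaling moved this comparison too: with library size alone the median of all genes was -0.23 against CCl4, with 641 genes higher and 3587 lower rather than 1404 and 1465, and 0.13 against healthy, with 3808 and 841 rather than 3162 and 2043. The calls for the 9 genes were the same under both scalings in these 2 comparisons, while the uncalled change of Col18a1 against healthy liver turned from -0.13 to 0.022.

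In organoids grown from CCl4 mice, none of the 9 genes was called higher than in organoids from mineral oil mice, and 5 were lower. Of all 14794 genes tested, 40.3% were called, 20.5% higher and 19.8% lower. The median log2 change of the 9 genes was -0.98, against 0.034 over all genes tested. The labels call these organoids an in vivo fibrosis model.

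Nid1 had 1086, 378 and 336 reads in the mineral oil libraries (21.6, 8.21 and 7.19 CPM) and 0, 0 and 4 reads in the CCl4 libraries. The groups were far apart, and mineral oil replicate 1 was the highest. The fitted log2 change was -7.61 ± 0.56 (adjusted p = 7.29e-05), a value that depends on the prior count because the CCl4 libraries were near 0. Nid1 had enough reads for a test in these organoids only through the mineral oil libraries, which are 1 side of this comparison. The same holds for the comparison of extract with mineral oil organoids. The laminin chains Lama5 and Lamc1 were also lower. Lama5 was at 1817, 1991 and 1953 CPM in mineral oil and 771, 1158 and 1038 CPM in CCl4 organoids, with no overlap and a log2 change of -0.98 ± 0.15 (adjusted p = 0.0020). Lamc1 was at 323, 531 and 553 CPM against 177, 190 and 214 CPM, a change of -1.24 ± 0.19 (adjusted p = 0.0018). Mineral oil replicate 1 was the lowest of its group for both chains.

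Lamb3, abundant in organoids, was at 737, 829 and 724 CPM in mineral oil and 563, 608 and 581 CPM in CCl4 organoids. It changed by -0.38 ± 0.09 (adjusted p = 0.0088), without overlap.

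Col18a1 was at 380, 555 and 541 CPM against 129, 179 and 212 CPM, a change of -1.51 ± 0.20 (adjusted p = 0.00084). Col4a1 was at 385, 397 and 379 CPM in mineral oil and 446, 555 and 413 CPM in CCl4 organoids. Its CCl4 libraries all lay above the mineral oil ones, but the change of 0.27 ± 0.11 did not pass (adjusted p = 0.0815). Leaving out CCl4 replicate 3 brought it past the threshold (0.36, adjusted p = 0.0398), as did scaling by library size only (0.31, adjusted p = 0.0421). With any other single library left out it did not pass (adjusted p up to 0.181). Col4a2 overlapped between the groups, at 387, 446 and 428 CPM against 370, 444 and 348 CPM (-0.12 ± 0.10, adjusted p = 0.38). Col15a1, low in organoids, was at 4.42, 5.08 and 3.68 CPM against 0.684, 2.52 and 2.65 CPM, a change of -1.36 ± 0.48 (adjusted p = 0.0511). That value passed with voom weights (adjusted p = 0.0388) and without any single CCl4 library (0.0389 to 0.0476). Leaving out single mineral oil libraries did not bring it past the threshold (adjusted p up to 0.138).

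Lamb1 depended on a single library. It was at 9.75 CPM in mineral oil replicate 1 and at 84.2 and 79.2 CPM in the other mineral oil libraries, against 45.6, 93.7 and 99.5 CPM in CCl4 organoids. The log2 change was 0.90 ± 0.76 (adjusted p = 0.38) with all libraries and -0.12 ± 0.28 (adjusted p = 0.73) without mineral oil replicate 1. Without that library the 5 calls were retained, with log2 changes of -7.12 for Nid1, -1.69 for Col18a1, -1.49 for Lamc1, -1.02 for Lama5 and -0.41 for Lamb3. The same library had a summed endothelial marker level of 4.86 CPM, against 1.56 and 1.89 CPM in the other mineral oil libraries. Stellate cell or myofibroblast markers summed to 5.45 to 7.02 CPM over the mineral oil and CCl4 organoids, with 2 of 12 above 1 CPM on average in each group, and endothelial markers to 1.56 to 4.86 CPM, with 0 of 10 above 1 CPM on average. At 0 reads in both groups were Clec4g and Emcn of the endothelial and Des and Dcn of the stellate cell list, and in CCl4 organoids also Kdr, Lrat and Col3a1. Other lists differed between the groups: 8 macrophage or leukocyte markers summed to 28.6 to 116 CPM in mineral oil and 6.74 to 16.9 CPM in CCl4 organoids (Adgre1 at 0 reads in both), the cholangiocyte or progenitor markers to 7440 to 8510 and 5906 to 6354 CPM, and 4 mesothelial markers to 889 to 1663 and 386 to 634 CPM. Single genes made up most of 2 of these sums, given here as means in mineral oil and CCl4 organoids. Msln was at 1341 and 550 CPM, with Upk3b at 5.18 and 0.31, Lrrn4 at 0.18 and 0.13 and Wt1 at 0.014 and 0 CPM. Csf1r was at 73.6 and 7.14 and Cd68 at 12.0 and 4.16 CPM, with Ptprc, the next, at 0.29 and 0.18 CPM. Hepatocyte markers summed to 979 to 1484 in mineral oil and 1672 to 2418 CPM in CCl4 organoids, with 4 of 7 tested called higher and 1 lower. Of 5 stellate cell or myofibroblast markers tested, 3 were called higher and 1 lower, each below 2 CPM on average. Their part in the lower laminin, Nid1 and Col18a1 values was not tested.

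**Figure D2:**
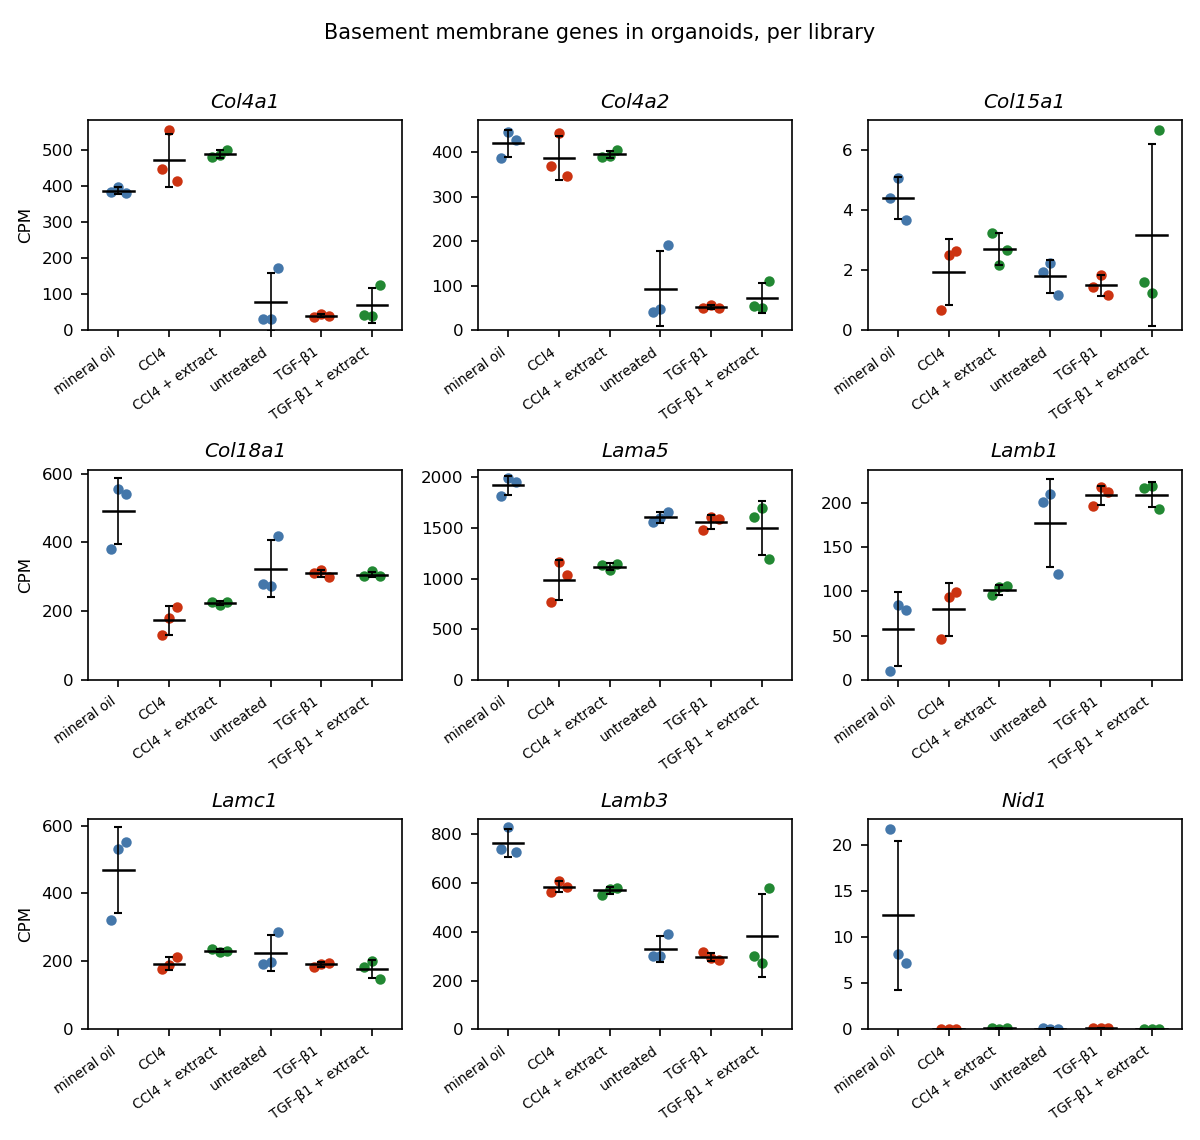
CPM of the 9 genes (vertical axes from 0) in the 6 organoid groups: organoids from mineral oil mice, from CCl4 mice and from CCl4 mice with extract, then untreated, TGF-β1 and TGF-β1 plus extract organoids of healthy mice. Points are libraries, lines means and bars ± SD (n = 3, cut at 0); the first 3 and last 3 groups were normalized separately. Lamb1 has 1 mineral oil library at 9.75 CPM, Nid1 is between 7.19 and 21.6 CPM in mineral oil organoids and at most 0.199 CPM in every other group, and Col4a1 has libraries at 172 and 126 CPM in the untreated and TGF-β1 plus extract groups.

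The extract changed none of the 9 genes in organoids of CCl4 mice by limma's test (all adjusted p = 0.9997), 1 had an unadjusted p under 0.05, and 0.0% of all genes were called. With voom weights the count for the 9 genes was 0 as well. Col4a1 was at 480, 485 and 500 CPM, Col4a2 at 390, 392 and 404, Lama5 at 1129, 1079 and 1147, Lamb3 at 551, 575 and 580, Lamc1 at 237, 227 and 230 and Col18a1 at 227, 216 and 225 CPM. For Col18a1 and Lamc1 the extract libraries lay above the CCl4 libraries (log2 changes of 0.39 ± 0.20 and 0.26 ± 0.19), and for Nid1, the gene with the unadjusted p of 0.034, the reads were 8, 4 and 6 against 0, 0 and 4. Lamb1 was at 95.5, 105 and 106 CPM and Col15a1 at 3.25, 2.17 and 2.69 CPM. These ranges overlapped those of CCl4 organoids.

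Against mineral oil organoids, the extract group had 5 of the 9 genes lower and 1 higher, beside 34.5% of all genes called (17.3% higher, 17.2% lower). The 5 lower genes were Nid1 (-6.19), Col18a1 (-1.12), Lamc1 (-0.98), Lama5 (-0.78) and Lamb3 (-0.42). The higher gene was Col4a1 (0.34 ± 0.11, adjusted p = 0.0461), a call that was lost without a filter on low values (0.0621), with a replicate block (0.0576) and without any single library of these 2 groups except mineral oil replicate 1 (0.097 to 0.133). With library size alone the all-gene split here was 3359 higher and 2116 lower rather than 2552 and 2550, with a median change of 0.12 rather than 0.042.

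**Figure D3:**
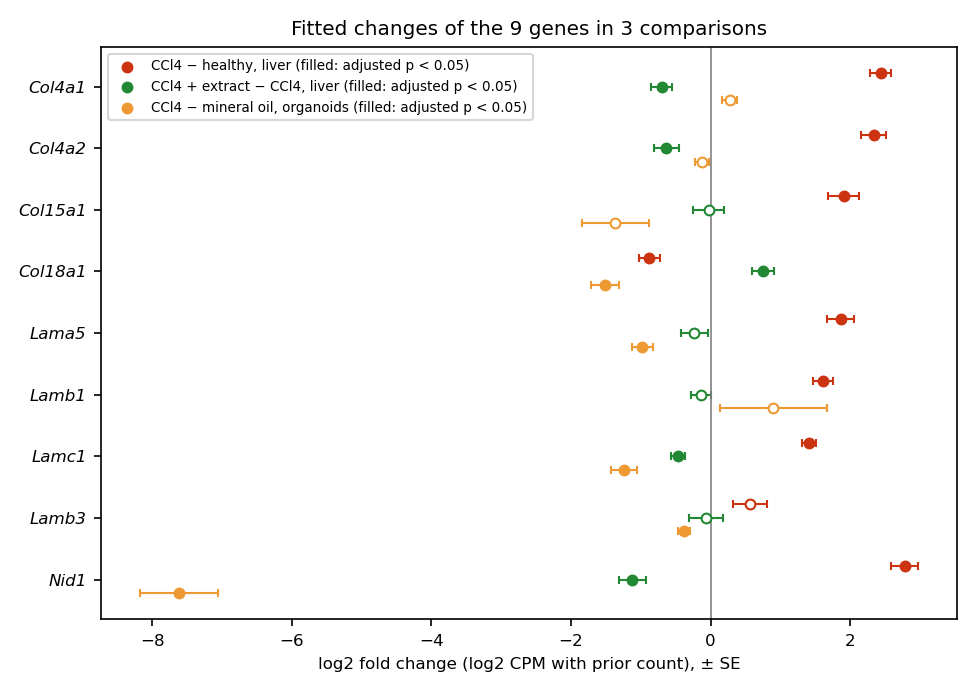
Fitted log2 fold change ± SE (horizontal axis) of each gene (vertical axis) for CCl4 against healthy liver, extract against CCl4 liver and CCl4 against mineral oil organoids. Filled points passed an adjusted p of 0.05 and open points did not. In CCl4 liver 7 genes lie right of 0 as filled points, while in CCl4 organoids the 5 filled points lie left of 0, Nid1 at -7.61.

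In organoids of healthy mice, TGF-β1 changed none of the 8 genes tested by limma with all 9 libraries, and 0 had an unadjusted p under 0.05. Of all 14116 genes tested, 3 (0.0213%) were called. Voom weights gave 0 as well. The labels call these organoids an in vitro fibrosis model.

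Col4a1 was at 30.1, 32.1 and 172 CPM in untreated organoids, 36.3, 44.9 and 39.9 CPM with TGF-β1 and 41.1, 40.1 and 126 CPM with TGF-β1 and extract. Col4a2 was at 41.3, 47.0 and 191, then 50.3, 57.0 and 49.7, then 54.6, 49.8 and 111 CPM. The high value of each of these sets was replicate 3 of the untreated and of the extract group, the libraries that stood apart. Lamb3 was likewise high there, at 392 and 579 CPM against 274 to 316 CPM in the other 7 libraries, and Col15a1 was at 6.68 CPM in TGF-β1 plus extract replicate 3 against 1.18 to 2.25 CPM elsewhere. Lamb1 was low in untreated replicate 3, at 120 CPM against 193 to 219 CPM in the other 8. Marker sums differed in the same 2 libraries, given here as untreated replicate 3 and TGF-β1 plus extract replicate 3 against the other 7. Cholangiocyte or progenitor markers summed to 10661 and 6595 against 4817 to 5473 CPM, and macrophage or leukocyte markers to 109 and 38.3 against 15.9 to 29.3 CPM. Mesothelial markers summed to 2708 and 666 against 551 to 817 CPM. Endothelial markers summed to 7.85 and 12.3 against 0.867 to 1.54 CPM, of which Stab1, picked out after its values were seen, made up 6.82 and 11.2 CPM, while Kdr, Lyve1 and Emcn were at 0 reads in both libraries. Their part in these values was not tested.

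Without those 2 libraries, a choice made after seeing the data, 3 of the 8 genes were higher with TGF-β1 than without, beside 23.4% of all genes called (11.5% higher). Col4a1 rose by 0.37 ± 0.08 (adjusted p = 0.0042), Col4a2 by 0.24 ± 0.07 (adjusted p = 0.0292) and Col18a1 by 0.16 ± 0.04 (adjusted p = 0.0166). The values behind these calls are 30.1 and 32.1 against 36.3 to 44.9 CPM for Col4a1, 41.3 and 47.0 against 49.7 to 57.0 CPM for Col4a2, and 278 and 274 against 299 to 320 CPM for Col18a1, so the remaining libraries did not overlap. The untreated group then held 2 libraries. With all libraries the fitted changes of Col4a1 and Col4a2 had the opposite sign, -0.45 ± 0.70 and -0.46 ± 0.56.

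Lama5, the most abundant of the 9 in these organoids, was at 1554, 1598 and 1657 CPM untreated, 1483, 1606 and 1584 CPM with TGF-β1 and 1608, 1691 and 1194 CPM with TGF-β1 and extract. Lamc1 was at 192, 198 and 285, then 184, 193 and 197, then 183, 202 and 148 CPM. Neither passed, with or without the libraries that stood apart. Nid1 was at the limit of detection, with 8, 4 and 0 reads untreated, 8, 12 and 8 with TGF-β1 and 4, 2 and 4 with TGF-β1 and extract. An observed 0 still allows 3 reads if reads are independent, but low counts here were mostly even, so this limit may be too low.

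The extract after TGF-β1 changed 0 of the 8 genes against TGF-β1 alone by limma with all libraries, and 0 of 8 without the 2 libraries. In both cases 0 of all genes were called, and voom weights also gave 0 of the 8. With all libraries 0 of the 8 had an unadjusted p under 0.05. The labels do not say when organoids with TGF-β1 alone were harvested. Time since TGF-β1 may thus differ between these groups, and it cannot be told apart from the extract. Against untreated organoids, 0 of 8 were called, with 0 at an unadjusted p under 0.05, 0 with voom weights and 0.0142% of all genes called. Without the 2 libraries 2 of 8 were called, beside 13.8% of all genes (5.85% higher, 7.9% lower): Col4a1 (0.38 ± 0.08, adjusted p = 0.0093) and Col18a1 (0.16 ± 0.05, adjusted p = 0.0413).

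The CCl4 effect differed between liver and organoids of treated mice for 7 of the 9 genes, each more positive in liver, beside 54.1% of all 13108 genes tested (26.8% higher, 27.3% lower). The liver effect is set against healthy mice and the organoid effect against mineral oil mice, so the vehicle is part of this difference. The difference of the effects, fitted over both tables, was largest for Nid1 (10.39 ± 0.60 on the log2 scale) and smallest among the called genes for Lamb3 (0.94 ± 0.27, adjusted p = 0.0081). The Nid1 value depends on the prior count. Nid1 had enough reads for a test in those organoids only through the mineral oil libraries, which are part of this difference. Col18a1, lower in both settings, had a difference of 0.64 ± 0.26 that did not pass (adjusted p = 0.0509). It passed with a replicate block (0.0365), with voom weights (0.0498) and with library size alone (0.99, adjusted p = 0.0064). Leaving out CCl4 liver replicate 3, CCl4 organoid replicate 3 or mineral oil replicate 1 also brought it past the threshold (0.0075 to 0.018). Lamb1 did not pass with all libraries (0.71 ± 0.81, adjusted p = 0.47) and passed without mineral oil replicate 1 (1.73, adjusted p = 0.00024). Against the TGF-β1 effect in culture, the CCl4 effect in liver differed for 7 of 8 genes, beside 36.4% of all genes (17.4% higher, 18.9% lower), 6 of them more positive and Col18a1 more negative in liver (-0.84 ± 0.23, adjusted p = 0.0094). Without the 2 libraries that stood apart the count was again 7 of 8, beside 45% of all genes (21.8% higher, 23.2% lower), with Col4a1 at 2.07 rather than 2.89, Col4a2 at 2.09 rather than 2.80 and Col18a1 at -1.04. With library size alone the median difference of all genes was 0.30 for the first and 0.32 for the second, with 4841 higher and 1928 lower rather than 3516 and 3575, and 3830 and 600 rather than 2210 and 2401.

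The extract effect differed between liver and organoids of CCl4 mice for Col4a1 (-0.76 ± 0.20, adjusted p = 0.0348) and Nid1 (-2.54 ± 0.60, adjusted p = 0.0205), 2 of 9 genes beside 7.06% of all genes (2.4% higher, 4.66% lower). The Col4a1 call was lost and a Lamc1 call gained with a replicate block (adjusted p of 0.0502 and 0.0477), and leaving out single libraries of the 4 groups kept between 0 and 2 calls. Col4a1 did not pass without any one of these libraries (adjusted p of 0.059 to 0.094), except replicate 2 of CCl4 liver and replicate 2 of CCl4 organoids. The Nid1 difference rests on 0 to 8 reads in the organoid libraries and was lost with voom weights (adjusted p = 0.19). It was also lost without some single libraries (adjusted p of 0.051 to 0.061). Nid1 passed the filter on reads in that organoid table only through the mineral oil libraries, which are not part of this difference. Against the extract effect after TGF-β1, 0 of 8 genes were called by limma (1 at an unadjusted p under 0.05, 0 with voom weights), beside 5.81% of all genes (2.21% higher, 3.61% lower). Without the 2 libraries that stood apart, 3 of 8 were called, beside 11.1% of all genes (4.52% higher, 6.6% lower): Col4a1 (-0.71), Lamc1 (-0.48) and Col18a1 (0.75). Library size alone shifted the all-gene median of these differences to -0.28 and -0.30, with 97 higher and 1632 lower rather than 315 and 611, and 115 and 1937 rather than 280 and 457.

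Levels per kb of exon set the genes in a different order in liver and in organoids. In healthy liver Col18a1 led at 172 CPM per kb, followed by Col4a1 at 4.97, Col4a2 at 3.99, Nid1 at 2.70, Lamc1 at 2.23, Col15a1 at 0.81, Lamb1 at 0.74, Lamb3 at 0.40 and Lama5 at 0.32. Neighbours in this order overlapped in their library ranges, except Col18a1 over Col4a1, Lamc1 over Col15a1 and Lamb1 over Lamb3. In organoids of mineral oil mice Lama5 led at 169 CPM per kb, then came Lamb3 at 115, Col18a1 at 70.1, Col4a2 at 63.5, Lamc1 at 56.7, Col4a1 at 51.9, Lamb1 at 5.82, Nid1 at 1.78 and Col15a1 at 0.69. There the neighbours from Col18a1 to Col4a1 overlapped in turn, as did Lamb1 and Nid1. Untreated organoids of healthy mice had Lama5 at 141 CPM per kb, Lamb3 at 49.96, Col18a1 at 46.2, Lamc1 at 27.2, Lamb1 at 17.8, Col4a2 at 14.1, Col4a1 at 10.4, Col15a1 at 0.28 and Nid1 at 0.013, where Lamb3 with Col18a1, Lamb1 with Col4a2 and Col4a2 with Col4a1 overlapped. Without replicate 3, which stood apart, Col4a2 was at 6.67 and Col4a1 at 4.17 CPM per kb, the order of the 9 genes was as before, and no neighbours overlapped over the 2 remaining libraries. The lowest gene of healthy liver, Lama5, was thus the highest of both organoid controls, with the limit that the tables were normalized separately.

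Within a library, the ratio of Col4a1 to Col4a2 per kb does not depend on library scaling. It was 1.19 to 1.39 over the 9 liver libraries, with means of 1.27 in healthy, 1.35 in CCl4 and 1.29 in extract-treated liver. In organoids of mineral oil mice it was 0.79 to 0.88, and in those of CCl4 mice 1.05 to 1.11 without and 1.09 to 1.10 with the extract. The mineral oil libraries did not overlap either CCl4 group. In organoids treated in culture it was 0.61 to 0.80 in 8 libraries and 1.01 in TGF-β1 plus extract replicate 3. The chains that form a common trimer were therefore read in different proportions in liver and in most organoid libraries. Among organoids of treated mice, the proportions also differed between the mineral oil and the CCl4 groups. No test was run on the ratio.

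**Figure D4:**
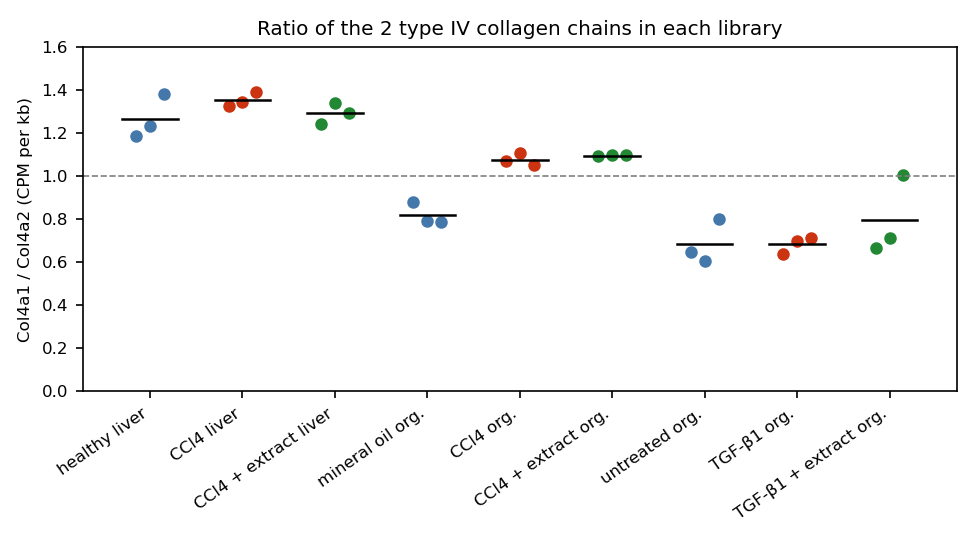
Ratio of Col4a1 to Col4a2 in CPM per kb of exon (vertical axis from 0) in each library (points) of the 9 groups, with group means (lines); the dashed line marks equal levels and "org." means organoids. Liver libraries lie between 1.19 and 1.39, organoids of mineral oil mice between 0.79 and 0.88, and organoids of CCl4 mice above 1.

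The ratio of the beta 1 to the gamma 1 laminin chain did not separate liver from organoids. Lamb1 per kb was 0.31 to 0.34 of Lamc1 in healthy liver, 0.37 to 0.41 in CCl4 liver and 0.43 to 0.52 with the extract, groups that did not overlap. It was 0.025 in mineral oil replicate 1 and 0.12 to 0.13 in the other mineral oil organoids, 0.21 to 0.41 in CCl4 organoids, and 0.87 to 1.09 in organoids treated in culture other than untreated replicate 3, at 0.35. Lamb3 per kb was 0.21 to 0.72 of Lamb1 in liver and 1.88 to 113 times Lamb1 in organoids, the highest value again in mineral oil replicate 1.

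The other genes of the pathway were read from lists of 25 further basement membrane components, 17 receptors and anchors and 13 genes of collagen IV assembly. In CCl4 liver 18 of 25 other components rose and 2 fell, with a median log2 change of 1.20, beside 28.5% of all genes higher and 25.5% lower. Examples are Sparc, a collagen-binding matricellular protein (2.79 ± 0.14), Lama2, another laminin alpha chain (2.16 ± 0.14), and Col4a5, a further type IV collagen chain (2.87 ± 0.20). Of 16 receptors and anchors tested 10 rose and 2 fell (median 0.51), among them the collagen receptors Ddr1 (3.06) and Ddr2 (1.14) and the laminin-binding integrin subunit Itga6 (2.95). Of 13 assembly genes 9 rose and 1 fell (median 0.63), led by the collagen chaperone Serpinh1 (2.80) and the cross-linking oxidases Loxl2 (3.04) and Lox (5.45).

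With the extract, 3 of 25, 5 of 16 and 2 of 13 genes of these lists were called against CCl4 liver, beside 19.1% of all genes. Sparc (-0.91) and Col4a5 (-0.75) fell and Agrn, a proteoglycan of the basement membrane, rose (0.32). Of the 16 receptors 2 rose and 3 fell, of which Itga6 (-1.20), the syndecan Sdc4 (0.88) and the laminin receptor subunit Itga7 (0.44) had the smallest p. Of the 13 assembly genes 2 fell, Serpinh1 (-1.15) and the prolyl 3-hydroxylase P3h1 (-0.43). The median changes were -0.11, -0.092 and -0.22. With library size alone the counts were 0 higher and 5 lower, 1 and 4, and 0 and 9, so the share called lower depends on the scaling; for CCl4 against healthy liver they were 22 and 0, 13 and 1, and 11 and 1.

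In organoids of CCl4 mice against mineral oil, 11 of 15 other components tested fell and 2 rose (median -1.42), beside 19.8% of all genes lower and 20.5% higher. Perlecan, Hspg2, went from a mean of 353 ± 129 to 32.8 ± 6.1 CPM (-3.36 ± 0.29), Agrn from 1709 ± 118 to 483 ± 40 CPM (-1.82 ± 0.10) and Col4a5 from 56.1 ± 2.9 to 33.1 ± 1.8 CPM (-0.76 ± 0.08). Of 17 receptors 9 fell and 3 rose (median -0.52), with Itga7 (-3.08), the laminin-binding Bcam (-3.00) and Ddr1 (-0.52) lowest in p. Of 11 assembly genes 5 fell and 1 rose (median -0.37): the lysyl hydroxylase Plod1 (-1.18) and P3h2 (-1.46) fell, and the collagen IV cross-linking peroxidasin Pxdn rose (3.24 ± 0.51) from a mean of 0.029 to 0.54 CPM. In organoids treated in culture, 0 genes of these lists were called by limma with all libraries in any comparison. Without the 2 libraries that stood apart, TGF-β1 against untreated gave 2 higher and 2 lower of 14, 4 and 4 of 17, and 2 and 2 of 9, beside 11.5% of all genes higher and 11.9% lower.

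Across all 27 libraries, the genes nearest to each of the 9 were found by the root mean square difference of log2 values, centred within each table, over 9639 genes expressed in all tables. Col4a1 and Col4a2 were each other's nearest gene (0.17), followed by Adcy3 for Col4a1 (0.27) and Adam15 for Col4a2 (0.25). The nearest genes were Ehd4 and Ahnak for Lamc1 (0.14 and 0.15), Mbp and Septin8 for Lama5 (0.17 and 0.21), Tbc1d1 and Ankrd13b for Lamb3 (0.18 and 0.19) and Xpc and C2cd2 for Col18a1 (0.19 and 0.20). Col15a1 (Spsb1 0.44, Runx1 0.45), Lamb1 (Amz1 0.42, Txndc16 0.43) and Nid1 (Eml1 0.94, Unc93b1 0.95) had no gene as near. Apart from the collagen IV pair, no gene of the 9 had another of the 9 among its 2 nearest, and the closest such pair was Lama5 and Lamc1 at 0.28.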

How the data were processed

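Messenger RNA of 27 libraries was deposited in 3 tables of log2 values per gene, with 9 libraries each. RNA was extracted with TRIzol and libraries were made with a stranded TruSeq mRNA kit, per the labels' protocols. The submitters' processing notes name mm10 as the build; the sources used here give no aligner, counter or annotation. From the values, the deposited log2 values are CPM of a scaled library size with a prior count of 2: in every library 100% of values gave whole reads within 0.05. Even numbers made up 67.1 to 74.1% of gene counts of 1 to 10 and 49.1 to 51.0% of counts over 100, so low counts are not independent molecules, and limits from reads cover counting error only.

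The test was limma 3.58.1 in R 4.3.3 on the deposited log2 values (lmFit with a mean per group, eBayes with trend), tested on simulated data. A gene was tested if its CPM in 3 or more libraries reached that of 10 reads at the median read total, with 15 or more reads over the table: 15036, 14794 and 14116 genes. Differences between effects were fitted over 2 tables together. The 9 genes and all lists were chosen with earlier results of these data known. Other genes named are the called genes of a list where at most 3 were called, otherwise its 3 with the smallest p, and the 2 nearest genes of each member. Exon lengths come from GENCODE M21 (GRCm38), upstream sequences from RefSeq. Alternatives were library size alone, a prior count of 0.5, no filter, voom weights, a replicate block, leaving out each library, and, chosen after seeing the data, leaving out the 2 libraries that stand apart. Replicate numbers come from the titles. Deviations of same-numbered libraries correlated at 0.53, 0.58 and 0.72 between untreated and TGF-β1 plus extract organoids, in both of which replicate 3 stands apart, and in no other pair of groups were all 3 correlations over 0.1.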

Additional observations from a re-analysis of the deposited data

Results flagged for a closer look

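Effects that differed between settings by a limma test of the difference itself are listed here, as log2 differences of the liver effect minus the organoid effect. For CCl4 in liver minus CCl4 in organoids of treated mice, the differences were 10.39 for Nid1, 3.27 for Col15a1, 2.84 for Lama5, 2.65 for Lamc1, 2.46 for Col4a2, 2.16 for Col4a1 and 0.94 for Lamb3. The size for Nid1 depends on the prior count, and Nid1 was tested in those organoids only because of the mineral oil libraries compared here. For CCl4 in liver minus TGF-β1 in culture, they were 2.89 for Col4a1, 2.80 for Col4a2, 2.14 for Col15a1, 1.91 for Lama5, 1.62 for Lamc1, 1.33 for Lamb1 and -0.84 for Col18a1. Of these, the Col18a1 call was lost with library size alone (-0.46, adjusted p = 0.122) and the Col15a1 call without CCl4 liver replicate 3 (1.87, adjusted p = 0.0543). For the extract in CCl4 liver minus the extract in organoids of CCl4 mice, they were -0.76 for Col4a1 and -2.54 for Nid1. This Col4a1 call was lost with a replicate block (adjusted p = 0.0502) and without most single libraries. The Nid1 call was lost with voom weights (adjusted p = 0.191). It rests on 4 reads over the CCl4 organoid libraries and 18 over those with the extract. The tables differ in tissue, culture, normalization and control (healthy mice for CCl4 liver, mineral oil mice for CCl4 organoids), which cannot be told apart from the effects' setting. Groups of 3 libraries were not searched for single outlying values.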

How the results depend on the processing

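The counts of called genes among the 9 were within 1.5 times of the reported ones under every alternative for the 3 liver comparisons, the 3 comparisons of organoids of treated mice and both differences of the CCl4 effect. They moved elsewhere. Without the 2 libraries that stand apart, 3 genes were called for TGF-β1 against untreated, 2 for TGF-β1 plus extract against untreated and 3 for the extract effect in liver minus that after TGF-β1; with library size alone the last was 1, and the extract effect in liver minus organoids of CCl4 mice gave 4; the cause was not tested. Leaving out single libraries gave 0 to 2 for that difference and 0 to 1 for the former. A prior count of 0.5 changed none of the calls.

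Same-numbered libraries of 2 groups had deviations that correlated at -0.15 to 0.14 in liver and -0.15 to 0.37 in organoids of treated mice. Best with its own number were 2 and 4 of 9. With 3 libraries in a group, such values cannot settle whether the numbers pair those libraries. In culture they ran from -0.04 to 0.72 (5 of 9), all 3 over 0.1 only between the untreated and the TGF-β1 plus extract group, where the block changed no call of the 8 genes. With a replicate block, 8, 5 and 7 genes were called in liver and 5, 0 and 5 in organoids of treated mice (6 without it for extract against mineral oil, where Col4a1 at 0.34 was lost), 0 in each culture comparison, and 8, 7, 2 and 0 for the differences.

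Values that changed sign, none of them called in the reported fits, are log2 changes. With library size alone: Col18a1 for extract against healthy liver 0.022, for extract against TGF-β1 0.050 and against untreated 0.0094, and Lamb3 for extract against CCl4 organoids 0.0055. Without the 2 libraries, TGF-β1 against untreated: Col4a1 0.37, Col4a2 0.24, Col18a1 0.16; extract against TGF-β1: Col4a2 -0.0030, Col15a1 -0.052, Lama5 0.083, Lamb3 -0.056, Lamc1 0.0093; extract against untreated: Col4a2 0.24, Col15a1 -0.55, Col18a1 0.16, Lama5 0.065, Lamb3 -0.067; extract in liver minus extract after TGF-β1: Col15a1 0.023. With single libraries left out, the ranges were, for extract against CCl4 liver, Col15a1 -0.19 to 0.24, Lama5 -0.44 to 0.020 and Lamb3 -0.23 to 0.091; in organoids of treated mice, Lamb1 for CCl4 against oil -0.12 to 1.43, and for extract against CCl4 Col4a1 -0.026 to 0.19 and Col4a2 -0.034 to 0.14. In culture they were, for TGF-β1 against untreated, Col4a1 -0.89 to 0.37, Col4a2 -0.86 to 0.24 and Col18a1 -0.14 to 0.16; for extract against TGF-β1, Col4a2 -0.0030 to 0.57, Col15a1 -0.052 to 1.14, Col18a1 -0.041 to 0.0075, Lama5 -0.17 to 0.083, Lamb1 -0.041 to 0.059, Lamb3 -0.056 to 0.49 and Lamc1 -0.22 to 0.0093. For extract against untreated they were Col4a1 -0.44 to 0.93, Col4a2 -0.50 to 0.60, Col15a1 -0.29 to 0.91, Col18a1 -0.16 to 0.15, Lama5 -0.21 to 0.041 and Lamb3 -0.20 to 0.35. For the extract effect in liver minus organoids of CCl4 mice Lamb3 ran from -0.19 to 0.13, and minus that after TGF-β1 Col15a1 from -1.17 to 0.023 and Lama5 from -0.37 to 0.092.

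Nid1 in organoids is limited by depth, with 0 to 12 reads outside the mineral oil group.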
